A study of Mus musculus with 6 samples.

Results

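Lipoprotein assembly and clearance in fasted mouse liver was followed through 10 genes, Apob, Mttp, Tm6sf2, Apoa4, Apoa5, Apoc3, Vldlr, Lrp1, Scarb1 and Abca1. They were taken by symbol, with earlier results of these data known, and they are 10 of the 32285 genes listed for each library. The liver makes very low density lipoprotein by loading lipid onto the apolipoprotein encoded by Apob, which needs the microsomal transfer protein encoded by Mttp, and in fasting the fatty acids for these particles arrive from adipose tissue. Exchangeable apolipoproteins then set how fast the triglyceride is used in the circulation, receptors take up the remnants, and the sterol transporters exchange cholesterol with high density lipoprotein.

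Nuclei of whole liver were profiled by droplet single-nucleus RNA sequencing in 6 male mice aged 18 weeks, kept on chow and fasted overnight for 12 hours. The groups were 3 littermate controls and 3 mice with Plvap deleted in hepatic stellate cells, which store retinoid beside the liver sinusoids. Plvap encodes plasmalemma vesicle-associated protein, and the question set by the design is how its loss in stellate cells alters the fasted liver. The labels give the strain as C57BL/6JBomTac and, for all 6 mice alike, the alleles Plvaptm1.1Salm and Tg(Lrat-cre)1Rshw. In the transgene Cre recombinase is driven by Lrat, a gene of stellate cells. Because controls and knockouts bear the same allele entries, the labels do not settle whether the controls carried Cre. Nor do they say which exons of Plvap were deleted. Since litter is not given either, p-values of knockout against control measure the spread between these mice. Tests with the mouse as a block use the spread left after each mouse's own level is removed.

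The 10 genes lie on 8 chromosomes in mm10. Apoc3 (chr9:46232933-46235636, minus strand), Apoa4 (chr9:46240696-46243459, plus strand) and Apoa5 (chr9:46268633-46271919, plus strand) share 39.0 kb of chromosome 9. The other genes are Apob (chr12:7977648-8016835, plus), Mttp (chr3:138089854-138144968, minus), Tm6sf2 (chr8:70072924-70080066, plus), Vldlr (chr19:27216484-27254231, plus), Lrp1 (chr10:127538161-127621148, minus), Scarb1 (chr5:125277087-125341094, minus) and Abca1 (chr4:53030787-53159895, minus). All are protein-coding in the GENCODE annotation of that build. In 5 of the 10, other annotated genes overlap: Trmt10a and an antisense gene overlap Mttp, antisense or unclassified transcripts overlap Apoa4, Apoa5 and Lrp1, and an unclassified transcript on the same strand overlaps Scarb1. The sources used here do not say whether counting used strand, so reads of these partners cannot be told apart from reads of the genes.

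Promoters are shown for 3 apolipoprotein genes whose transcripts were lower in pericentral than in periportal hepatocyte nuclei, as described further on. The sequences are RefSeq's for GRCm38.p6, from 250 bases before to 50 bases after the annotated start, 5′ to 3′ on the plus strand, at chr12:7977427-7977726 for Apob, chr9:46240594-46240893 for Apoa4 and chr9:46268358-46268657 for Apoa5. Capitals mark matches to a TATA box (TATAAA), an E-box (CACGTG) or an HNF4 element (CAAAGNNCA), searched on both strands.
Apob: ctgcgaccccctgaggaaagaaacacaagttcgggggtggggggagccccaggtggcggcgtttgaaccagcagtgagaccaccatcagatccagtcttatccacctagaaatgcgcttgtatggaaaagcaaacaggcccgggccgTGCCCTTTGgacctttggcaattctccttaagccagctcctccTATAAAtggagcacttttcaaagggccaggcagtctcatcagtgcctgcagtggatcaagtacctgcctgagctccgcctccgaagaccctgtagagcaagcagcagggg
Apoa4: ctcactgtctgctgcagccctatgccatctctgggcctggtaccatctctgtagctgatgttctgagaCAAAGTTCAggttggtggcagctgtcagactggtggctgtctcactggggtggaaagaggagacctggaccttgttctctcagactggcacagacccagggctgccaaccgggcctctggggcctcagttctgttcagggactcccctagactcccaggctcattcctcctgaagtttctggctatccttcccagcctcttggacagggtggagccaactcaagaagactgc
Apoa5: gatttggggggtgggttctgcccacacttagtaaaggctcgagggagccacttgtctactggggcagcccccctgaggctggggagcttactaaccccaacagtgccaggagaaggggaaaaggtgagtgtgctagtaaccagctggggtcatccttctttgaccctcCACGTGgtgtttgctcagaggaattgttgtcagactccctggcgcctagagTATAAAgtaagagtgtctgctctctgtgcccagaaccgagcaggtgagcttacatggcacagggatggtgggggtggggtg
The Apob window held an HNF4 element on the minus strand and a TATA box, and none of its matches overlapped. An HNF4 element on the plus strand was the only match in the Apoa4 window, whereas Apoa5 held an E-box and a TATA box. Among 32851 promoter windows of this length, 13.6% held TATAAA, 7.15% held CACGTG and 6.36% held CAAAGNNCA. These matches describe letters in the window and not sites shown to be bound. RefSeq promoters were matched for 7 of the 10 genes, and Apoc3, Tm6sf2 and Scarb1 had no entry in the table used.

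The 6 libraries held 27297 barcodes and 151395899 unique molecular identifiers (UMIs, counts of distinct captured transcripts), or 23153182 to 27199466 per library. After filters and removal of 804 predicted doublets, 25663 nuclei remained, of which 1128, 715 and 989 in controls 1 to 3 and 778, 915 and 695 in knockouts 1 to 3 were hepatocyte nuclei by their markers, with median depths of 9185 to 11744 UMIs. Of the barcode sequences, 77 occurred in more than 1 library, and no pair of libraries shared more than 10. Control 1 and knockout 2 stood apart in hepatocytes: a cluster led by Ces3b, Angptl8 and G0s2 held 77.7% and 78.3% of their hepatocyte nuclei and at most 0.257% in any other library. Knockout 1 had most of its hepatocyte nuclei (73.7%) in a cluster of its own, led by Afm and Enpp2, and the remaining libraries shared a cluster with 58.7% or more of theirs. Plvap stood at 240, 213 and 240 CPM (UMIs of the gene per 1000000 UMIs of the class in that mouse) in control stellate nuclei and at 226, 185 and 154 in knockout ones, and the groups overlapped. The kit counts 3′ ends and the deleted exons are not known here, so this level does not check the labels.

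In hepatocyte nuclei none of the 9 lipoprotein genes that could be tested differed between knockouts and controls after adjustment over all genes. Mttp and Scarb1 were lower in each knockout than in any control, to 0.747 and 0.739 of the control level, and Apoa4 was lower in mean but overlapped. Of 13731 genes tested with edgeR's quasi-likelihood test, 0 (0%) had a Benjamini-Hochberg adjusted p under 0.05, while DESeq2 called 13, none of them among the 9, and the 9 genes had edgeR adjusted p-values of 0.99995. At an unadjusted p under 0.05 there were 465 genes (3.39%) in all, against 3 of the 9. The 9 genes had a median log2 change of -0.08, against -0.0025 over all genes tested, with 6 below 0 (50.5% of all genes) and 3 above. The levels by mouse are plotted first, and the values follow by role.

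**Figure D1:**
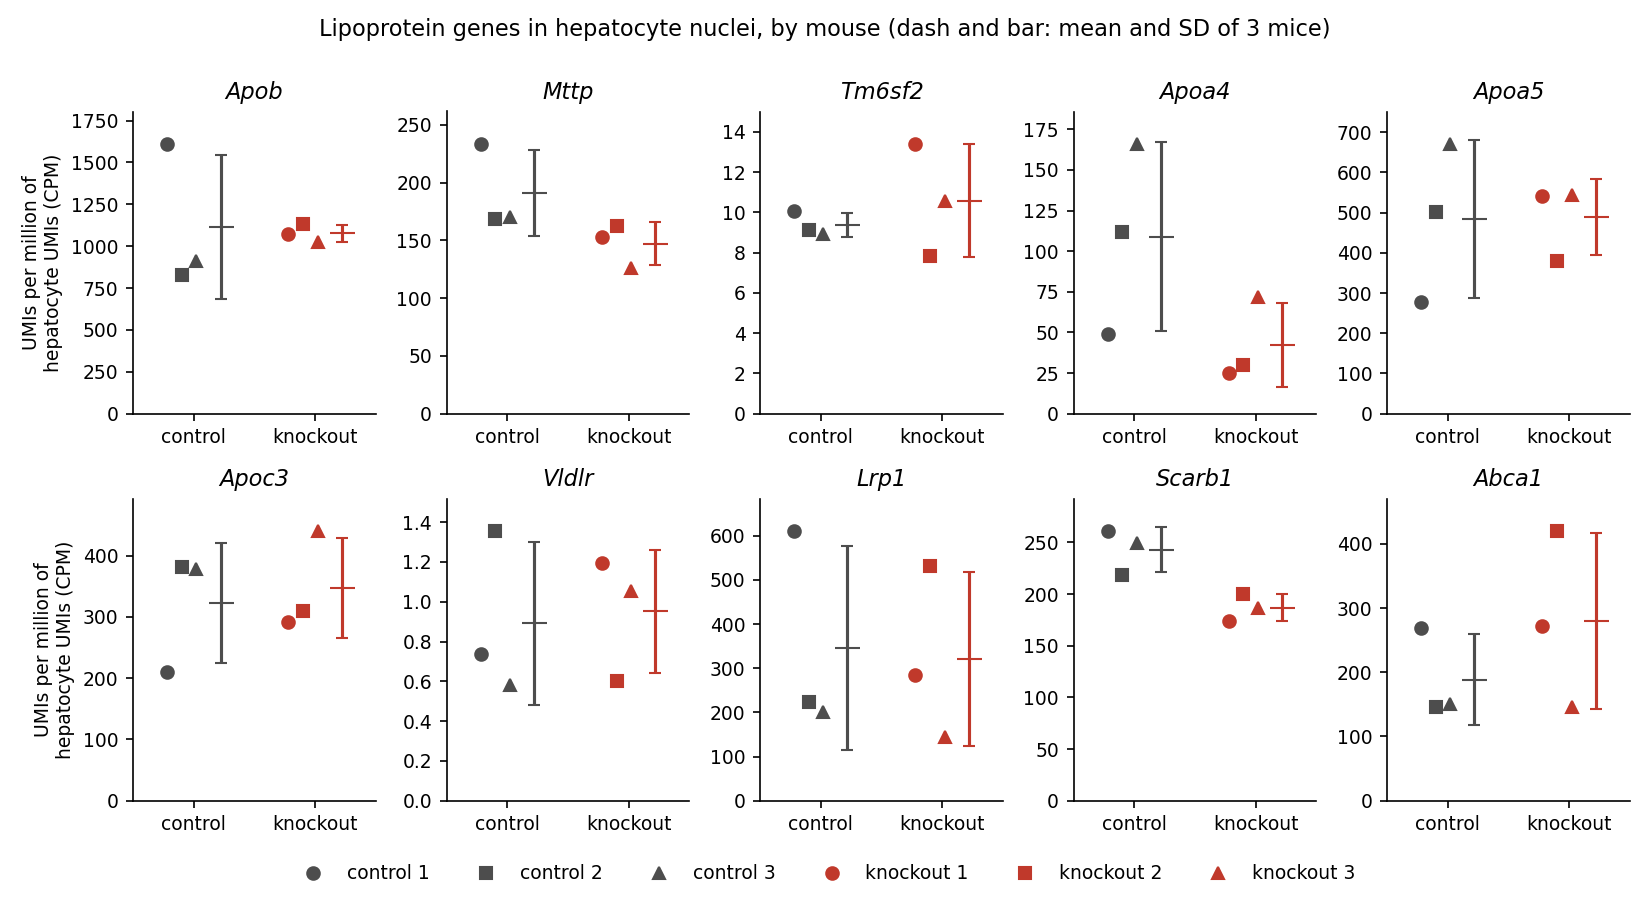
CPM of each lipoprotein gene in hepatocyte nuclei on linear axes from 0, with 1 symbol per mouse (controls grey, knockouts red) and a dash and bar for the mean and SD of 3 mice. The 3 knockout points lie below the 3 control points for Mttp and Scarb1, and control 1 is the highest point for Apob and Lrp1.

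Among the genes that assemble particles, Mttp encodes the transfer protein that adds lipid to nascent apolipoprotein B in the endoplasmic reticulum. Mttp measured 233, 169 and 170 CPM in controls 1 to 3 and 153, 162 and 126 CPM in knockouts 1 to 3. Every knockout lay below every control, which was the case for 3.02% of all genes tested. The means were 191 ± 37.0 CPM (SD, n = 3) for controls and 147 ± 18.7 CPM (SD, n = 3) for knockouts, a log2 change of -0.42 (SE 0.15, adjusted p = 0.99995, edgeR). The unadjusted p was 0.0281 in the same edgeR fit, and without control 1 and knockout 2 the change was -0.36 with an unadjusted p of 0.0753.

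Apob encodes the structural protein of each particle. It measured 1611, 825 and 911 CPM in controls and 1074, 1130 and 1025 CPM in knockouts. The knockouts fell inside the wide range of the controls, whose spread came mostly from control 1. The log2 change was -0.08 (SE 0.25, adjusted p = 0.99995, edgeR), and it turned to 0.19 without control 1 and knockout 2. Tm6sf2, whose product takes part in lipidation of the particle in the secretory pathway, measured 10.1, 9.13 and 8.94 CPM in controls and 13.4, 7.82 and 10.6 CPM in knockouts, from 74 to 112 UMIs per mouse. These groups overlapped, with a log2 change of 0.13 (SE 0.24, adjusted p = 0.99995, edgeR) that became -0.069 when hepatocyte clusters drawn mostly from 1 library were left out.

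Among the exchangeable apolipoproteins, Apoa4 encodes apolipoprotein A-IV, which is carried on triglyceride-rich particles and on high density lipoprotein. Apoa4 measured 49.3, 112 and 166 CPM in controls and 24.8, 30.2 and 71.8 CPM in knockouts. Knockout 3 lay above control 1, so the groups overlapped, although the other 2 knockouts were below all controls. The means were 109 ± 58.4 and 42.2 ± 25.7 CPM (SD, n = 3 each), with a log2 change of -1.46 (SE 0.59, unadjusted p = 0.0415, adjusted p = 0.99995, edgeR). Without control 1 and knockout 2 the change was -1.61 (unadjusted p = 0.0157, adjusted p = 0.686, edgeR). When each mouse was left out in turn it ranged from -2.12 to -0.93.

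Apoa5, which promotes lipolysis by lipoprotein lipase, measured 278, 502 and 671 CPM in controls and 542, 380 and 544 CPM in knockouts. Apoc3, which restrains lipolysis and remnant uptake, measured 210, 381 and 378 CPM in controls and 292, 309 and 440 CPM in knockouts. The Apoa5 knockouts lay within the range of the controls, and for Apoc3 the groups also overlapped, with knockout 3 above every control. The log2 changes were -0.07 (SE 0.39) for Apoa5 and 0.03 (SE 0.33) for Apoc3, each with an adjusted p of 0.99995 (edgeR). Although Apoa4, Apoa5 and Apoc3 are neighbours on chromosome 9, only Apoa4 had an unadjusted p under 0.05 in these hepatocyte sums, and the difference between the genes was not tested.

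Among the receptors and the sterol transporter, Scarb1 encodes the receptor that takes cholesteryl ester from high density lipoprotein. Scarb1 measured 261, 219 and 249 CPM in controls and 173, 200 and 187 CPM in knockouts. Every knockout lay below every control, as for Mttp. The means were 243 ± 21.8 and 187 ± 13.3 CPM (SD, n = 3 each), a log2 change of -0.44 (SE 0.15, unadjusted p = 0.0212, adjusted p = 0.99995, edgeR), and without control 1 and knockout 2 it was -0.46 (unadjusted p = 0.0447, adjusted p = 0.855, edgeR).

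Lrp1, a large endocytic receptor for remnants, measured 611, 224 and 202 CPM in controls and 286, 533 and 143 CPM in knockouts. Abca1, which exports cholesterol and phospholipid to lipid-poor apolipoprotein A-I, measured 270, 146 and 151 CPM in controls and 272, 420 and 146 CPM in knockouts. The high libraries of Lrp1 were control 1 and knockout 2, 1 in each group. Log2 changes were -0.14 (SE 0.52) for Lrp1 and 0.52 (SE 0.37) for Abca1, with adjusted p-values of 0.99995 (edgeR). Vldlr, the receptor for very low density lipoprotein, had 8, 11 and 7 UMIs in controls and 10, 6 and 8 in knockouts, or 0.580 to 1.36 CPM, and did not pass the low-count filter, so it was not tested here.

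Several of these genes differed more between the 2 libraries that stand apart and the other 4 than between genotypes, as a description with no test. Lrp1 averaged 572 CPM in control 1 and knockout 2 against 214 CPM in the other 4 libraries, a 2.68-fold difference (533 to 611 against 143 to 286). Apob averaged 1370 against 959 CPM (1.43-fold). Apoa5 was the other way, at 278 and 380 CPM in that pair and 502 to 671 CPM elsewhere, a ratio of 0.582. The pair was set apart by clusters of the same counts, and the share of all genes that separate it is not given here. For Mttp and Scarb1 the knockout was lower within both sets, which was fixed in advance because every knockout lay below every control. Log2 ratios were -0.52 for Mttp and -0.38 for Scarb1 between knockout 2 and control 1. Between the means of knockouts 1 and 3 and of controls 2 and 3 they were -0.28 and -0.38. For Apoa4 these ratios were -0.71 and -1.52. Abca1 was higher in the knockout in both sets, at 0.64 and 0.50. Apob, Apoa5, Apoc3, Lrp1, Tm6sf2 and Vldlr had opposite signs in the 2 sets. The part of this library split in the knockout values was not tested beyond these figures.

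The share of hepatocyte nuclei with at least 1 UMI shows how many nuclei carried a transcript. For Apoa4 it was 39.7 ± 15.2% for controls and 18.8 ± 5.01% for knockouts (SD, 3 mice each, exact permutation p = 0.1, two-sided, the smallest that 3 against 3 allows). After each nucleus was thinned to 1500 UMIs the shares were 13.5 ± 6.17% and 5.26 ± 1.84% (exact permutation p = 0.2). The thinned shares of Mttp were 24.0 ± 3.95% and 19.7 ± 2.38% (exact permutation p = 0.3), and those of Scarb1 were 28.1 ± 1.72% and 23.9 ± 2.19% (exact permutation p = 0.2). Before thinning, Mttp stood at 77.1 ± 3.90% and 71.6 ± 4.85% and Scarb1 at 82.3 ± 4.18% and 77.2 ± 3.32%, so most hepatocyte nuclei of both groups held these transcripts. Thinning left out at most 10 nuclei of a library. In endothelial nuclei, which are not known to make apolipoprotein A-IV, the unthinned share with an Apoa4 UMI was 1.26 to 8.72% at median depths of 3184 to 3978.5 UMIs. These shares cover counting of UMIs only, and droplets also catch free RNA.

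Along the liver lobule, blood runs from the portal vein to the central vein, and hepatocytes at the ends differ in metabolism. Hepatocyte nuclei of each library were split into 3 equal groups by a score of 11 pericentral and 10 periportal marker genes, none of them among the 10 genes described. The score is a range and not a cell type: 18.2 to 40.2% of nuclei per library lay within 0.1 of a boundary. The groups are equal in number but not in score. The lower boundary of the pericentral group was 0.776 in control 2 and -0.386 to -0.16 in the other libraries. Apob, Tm6sf2 and the 3 exchangeable apolipoproteins were lower in pericentral nuclei, and Scarb1 and Lrp1 were higher. Of the 9 genes other than Vldlr, 7 passed the test, 5 lower (Apoa4, Apoa5, Apoc3, Tm6sf2, Apob) and 2 higher (Scarb1, Lrp1). Among all 12424 genes tested with the mouse as a block, 27.4% passed (14.6% lower, 12.8% higher). The median log2 difference was -0.16 over all 10 genes, Vldlr included, and -0.0001 over all genes tested.

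**Figure D2:**
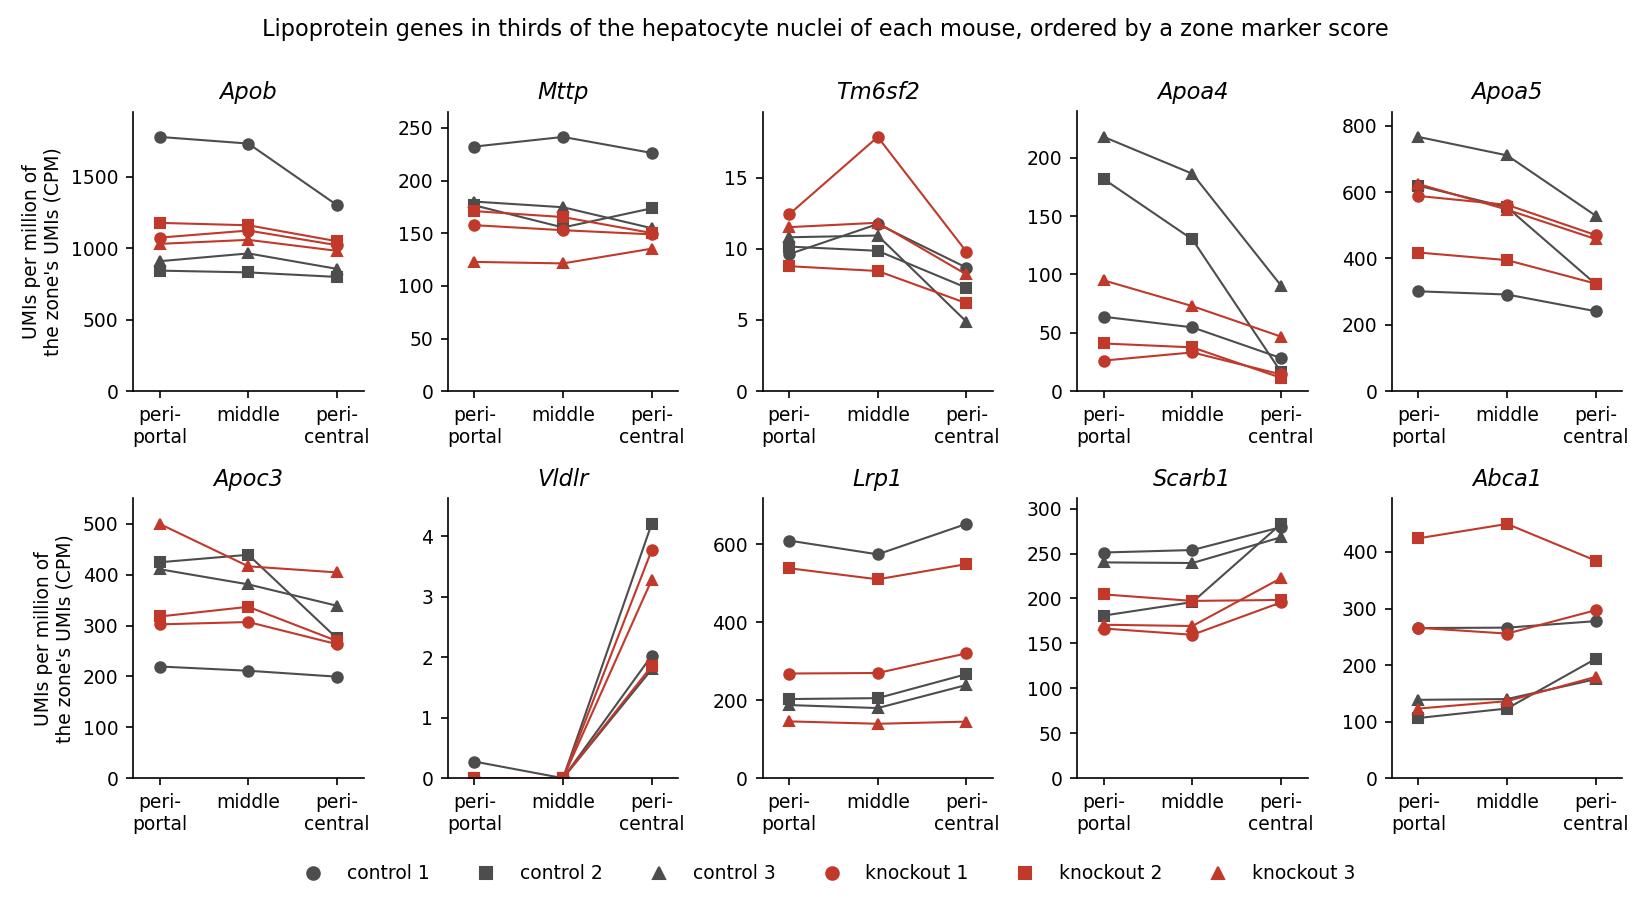
CPM of each lipoprotein gene in periportal, middle and pericentral hepatocyte nuclei on linear axes from 0, with 1 line per mouse (controls grey, knockouts red). Apoa4 and Apoa5 are lower in the pericentral than in the periportal group in all 6 mice, and Vldlr appears almost only in the pericentral group.

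Apoa4 had the largest zone difference of the 9 genes. Its level ran from 26.2 to 218 CPM over mice in periportal nuclei, with a median of 79.3, and from 11.4 to 90.5 CPM in pericentral nuclei, with a median of 22.4. Each of the 6 mice was lower pericentrally even though the ranges over mice overlapped, with a log2 difference of -1.59 (SE 0.27, adjusted p = 8.9e-04, edgeR). Control 2, whose pericentral boundary lay highest, had the largest difference (-3.39 from its own levels) and knockout 1 the smallest (-0.83). Apoa5 ran from 301 to 766 CPM (median 604) in periportal and from 241 to 529 CPM (median 391) in pericentral nuclei, lower in 6 of 6 mice (log2 -0.53, SE 0.06, adjusted p = 2.6e-07, edgeR). Apoc3, at 220 to 500 CPM (median 364) and 200 to 405 CPM (median 272), was also lower in 6 of 6 mice (log2 -0.34, SE 0.06, adjusted p = 1.0e-04, edgeR). The 3 genes of the chromosome 9 cluster were thus all lower in pericentral nuclei.

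Tm6sf2 ran from 8.78 to 12.4 CPM in periportal nuclei and from 4.88 to 9.80 CPM in pericentral ones, lower in 6 of 6 mice (log2 -0.55, SE 0.16, adjusted p = 0.00846, edgeR). Without control 3 it no longer passed (log2 -0.41, adjusted p = 0.0815, edgeR). Apob, with its HNF4 element and TATA box in the promoter window shown above, ran from 843 to 1779 CPM (median 1052) and from 799 to 1302 CPM (median 1002). It was lower in 6 of 6 mice (log2 -0.20, SE 0.05, adjusted p = 0.00159, edgeR), by -0.45 in control 1 and by -0.17 to -0.07 in the other mice. Without control 1 and knockout 2 the Apob difference was -0.12 and no longer passed (adjusted p = 0.107, edgeR). Mttp did not pass, with 123 to 232 CPM in periportal and 135 to 226 CPM in pericentral nuclei (log2 -0.12, adjusted p = 0.118, edgeR; lower in 5 of 6 mice).

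Scarb1 and Lrp1 went the other way. Scarb1 ran from 167 to 251 CPM (median 193) in periportal and from 196 to 283 CPM (median 245) in pericentral nuclei, higher in 5 of 6 mice (log2 0.21, SE 0.06, adjusted p = 0.00804, edgeR), the exception being knockout 2. Without control 2 the Scarb1 difference was 0.14 and did not pass (adjusted p = 0.0778, edgeR). Lrp1 ran from 146 to 610 CPM (median 236) and from 145 to 653 CPM (median 294), higher in 5 of 6 mice (log2 0.15, SE 0.05, adjusted p = 0.0383, edgeR), with knockout 3 the exception at -0.01. The Lrp1 difference failed the threshold in 5 of 13 settings, among them those without control 2 (0.12), control 3 (0.12) or knockout 1 (0.13). Abca1 was at 106 to 424 CPM and 175 to 385 CPM, with a log2 difference of 0.26 (SE 0.11) that did not pass (adjusted p = 0.119, edgeR). It passed in 4 of 13 settings, those without the low-count filter, with zone boundaries pooled over libraries, without knockout 2, and without both control 1 and knockout 2.

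**Figure D3:**
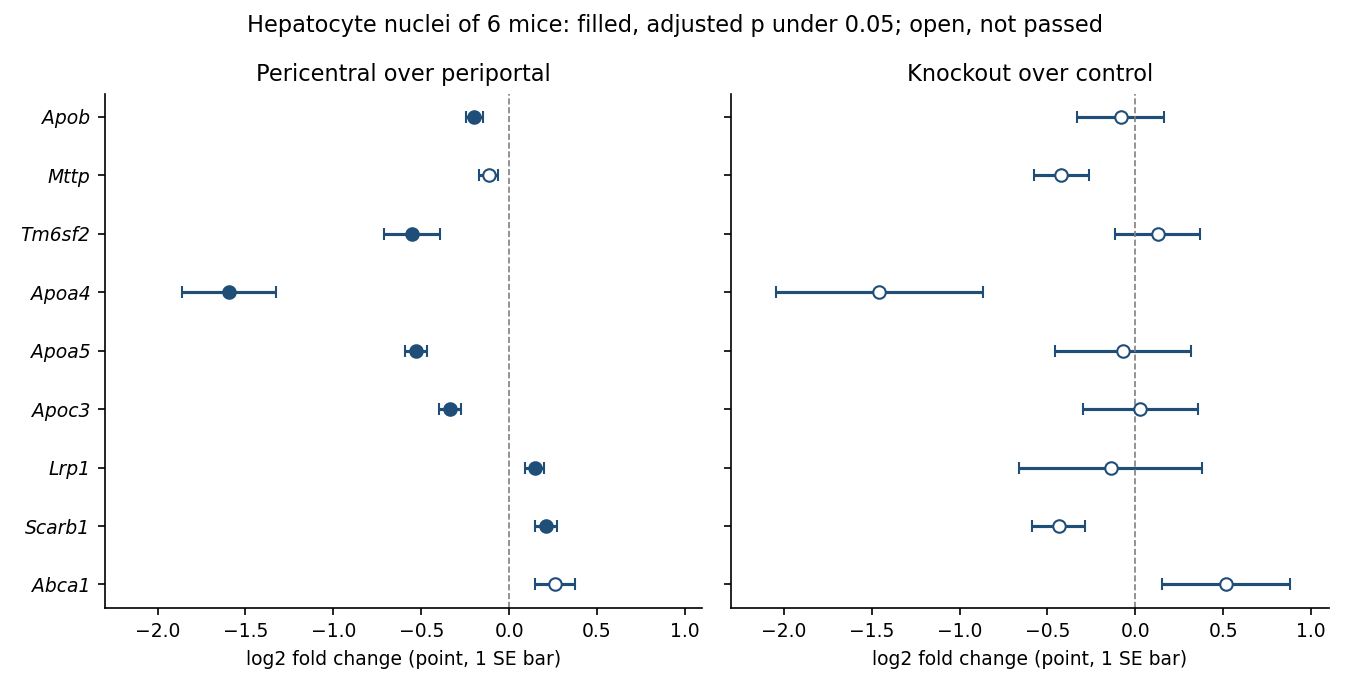
Log2 fold change of 9 lipoprotein genes in hepatocyte nuclei, as a point with a bar of 1 SE, for pericentral over periportal (left) and knockout over control (right), from edgeR. Filled points passed an adjusted p of 0.05: 7 genes did for zone and none did for genotype.

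Among hepatocyte nuclei, Vldlr UMIs were found almost only in the pericentral zone. There were 7, 11 and 7 UMIs in the pericentral nuclei of controls and 10, 6 and 8 in those of knockouts, 49 in all. The periportal nuclei of all 6 mice held 1 UMI and the middle nuclei held 0, at total depths of 18289861 pericentral, 19289203 periportal and 19362403 middle UMIs. The ratio of pericentral to periportal level was 51.7, with a 95% exact counting interval of 8.85 to 2082 that covers counting error only. In pericentral nuclei Vldlr stood at 1.80 to 4.21 CPM in every mouse, a low level, and it entered the zone test only through those nuclei, so that test is not counted in its support. Summed markers of cholangiocytes, a class that also held Vldlr, ran from 118 to 189 CPM in periportal and from 97.5 to 148 CPM in pericentral hepatocyte nuclei.

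Other properties of the nuclei moved with the zone. Median UMIs per nucleus were lower in pericentral than in periportal nuclei in 6 of 6 mice. When every nucleus was thinned to 1500 UMIs, Tm6sf2 and Vldlr were not tested, and Apoa4 (-1.38) and Apoa5 (-0.48) passed. Apob (-0.11), Apoc3 (-0.18), Scarb1 (0.20) and Lrp1 (0.20) then kept their sign and did not pass. All 19 abundant hepatocyte transcripts tracked as a reference for free RNA could be tested, and 15 of them were lower and 2 higher, with a median log2 difference of -0.38 that is of the same order as those of Apoc3 and Apoa5. Markers of stellate, endothelial, and T or NK cells summed to more in pericentral nuclei in 6 of 6 mice (stellate 29.7 to 41.0 against 38.2 to 77.1 CPM, endothelial 45.9 to 63.7 against 61.7 to 174 CPM, T or NK 5.56 to 8.78 against 26.3 to 57.7 CPM). Their part in the zone differences was not tested. Scaling by library size in place of TMM moved the split of called genes from 46.8% to 56.4% higher, with the 9 genes other than Vldlr keeping their sign.

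Whether the zone pattern differed by genotype was tested as an interaction. Of 12729 genes, 15 (0.118%) passed, and 0 of the 10 genes did, with none at an unadjusted p under 0.05 against 6.61% of all genes. The smallest adjusted p among them was 0.798, for Apoa5 (log2 0.22, edgeR). Vldlr, which entered only through its pericentral nuclei, adds nothing to that count. For Apoa4 the knockout effect differed between pericentral and periportal nuclei by 0.55 (SE 0.60, adjusted p = 0.946, edgeR), which is less than its SE. Within zones, Apoa4 was at 63.8, 182 and 218 CPM in periportal nuclei of controls and 26.2, 40.8 and 94.9 CPM in those of knockouts. Its knockout change was -1.61 (SE 0.62) in periportal, -1.47 (SE 0.54) in middle and -1.01 (SE 0.79) in pericentral nuclei, and the last became 0.13 without control 3. Mttp changes were -0.44, -0.43 and -0.39, and those of Scarb1 -0.37, -0.45 and -0.48, in the same order. Scarb1 knockouts lay below all controls in pericentral nuclei (196 to 223 against 268 to 283 CPM), and Mttp knockouts in periportal and pericentral nuclei. Such separation with knockouts lower was found in 2.59% of genes in periportal and 3.32% in pericentral nuclei. In each zone 0 genes were called by edgeR, with 367 of 11411 periportal, 355 of 11410 middle and 473 of 11610 pericentral genes at an unadjusted p under 0.05.

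The receptor and transporter genes were not confined to hepatocytes. Classes come from clusters of the same nuclei, so their levels are given as descriptions with no test between classes. Lrp1 was highest in macrophage nuclei, at 774 to 978 CPM, followed by hepatocyte nuclei at 143 to 611 CPM and stellate nuclei at 266 to 371 CPM, and the last 2 ranges overlapped. Cholangiocyte nuclei had 43.9 to 67.6 CPM, and T or NK, B and endothelial nuclei had 5.61 to 52.8, 7.26 to 48.3 and 7.67 to 11.6 CPM. Lrp1 in macrophages lay above every other class in all 6 mice.

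Abca1 was also highest in macrophage nuclei, at 827, 768 and 945 CPM in controls and 1236, 960 and 565 CPM in knockouts. The genotypes overlapped there, with a log2 change of 0.10 that turned to -0.17 without knockout 1. B nuclei followed at 302 to 379 CPM, and hepatocyte nuclei at 146 to 420 CPM overlapped with both B nuclei and stellate nuclei (178 to 207 CPM). Endothelial nuclei had 97.3 to 146 CPM, T or NK nuclei 41.9 to 94.3 CPM and cholangiocyte nuclei 25.1 to 57.0 CPM. Macrophage nuclei fell into states by library: an Il1b-led cluster held 93.1, 81.8 and 92.7% of them in control 1, knockout 1 and knockout 2, and its part in the Abca1 values was not tested.

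Scarb1 was at 186 to 336 CPM in macrophage and 173 to 261 CPM in hepatocyte nuclei, ranges that overlapped. It stood at 91.0 to 125 CPM in endothelial, 71.7 to 123 CPM in stellate and 43.9 to 67.7 CPM in cholangiocyte nuclei, and at most 39.6 CPM in lymphocytes. The lower hepatocyte level in knockouts was set against other classes by an interaction test. The knockout effect on Scarb1 was 0.43, 0.41 and 0.42 higher on the log2 scale in endothelial, macrophage and stellate than in hepatocyte nuclei, with adjusted p-values of 1.0 in each (edgeR), so no difference between classes was shown. These tests called 0 of 15860 genes for endothelial, 0 of 15310 for macrophage and 2 of 15568 (0.0128%) for stellate nuclei, none of them a lipoprotein gene.

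Vldlr was seen in cholangiocyte nuclei at 17.5, 26.8 and 14.7 CPM in controls and 21.8, 23.9 and 35.6 CPM in knockouts, from 4 to 16 UMIs per mouse. No Vldlr UMI was found in stellate, endothelial, macrophage, T or NK, or B nuclei of any mouse. A count of 0 allows a level of up to 1.25, 0.657, 0.968, 9.26 and 18.1 CPM in these classes in the library with the fewest UMIs, taking 3 counts as the limit and counting error only. The pooled mesenchymal nuclei of portal tracts and vessels held 7 Vldlr UMIs, or 12.6 CPM (95% exact Poisson interval 5.06 to 25.9, counting error only).

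**Figure D4:**
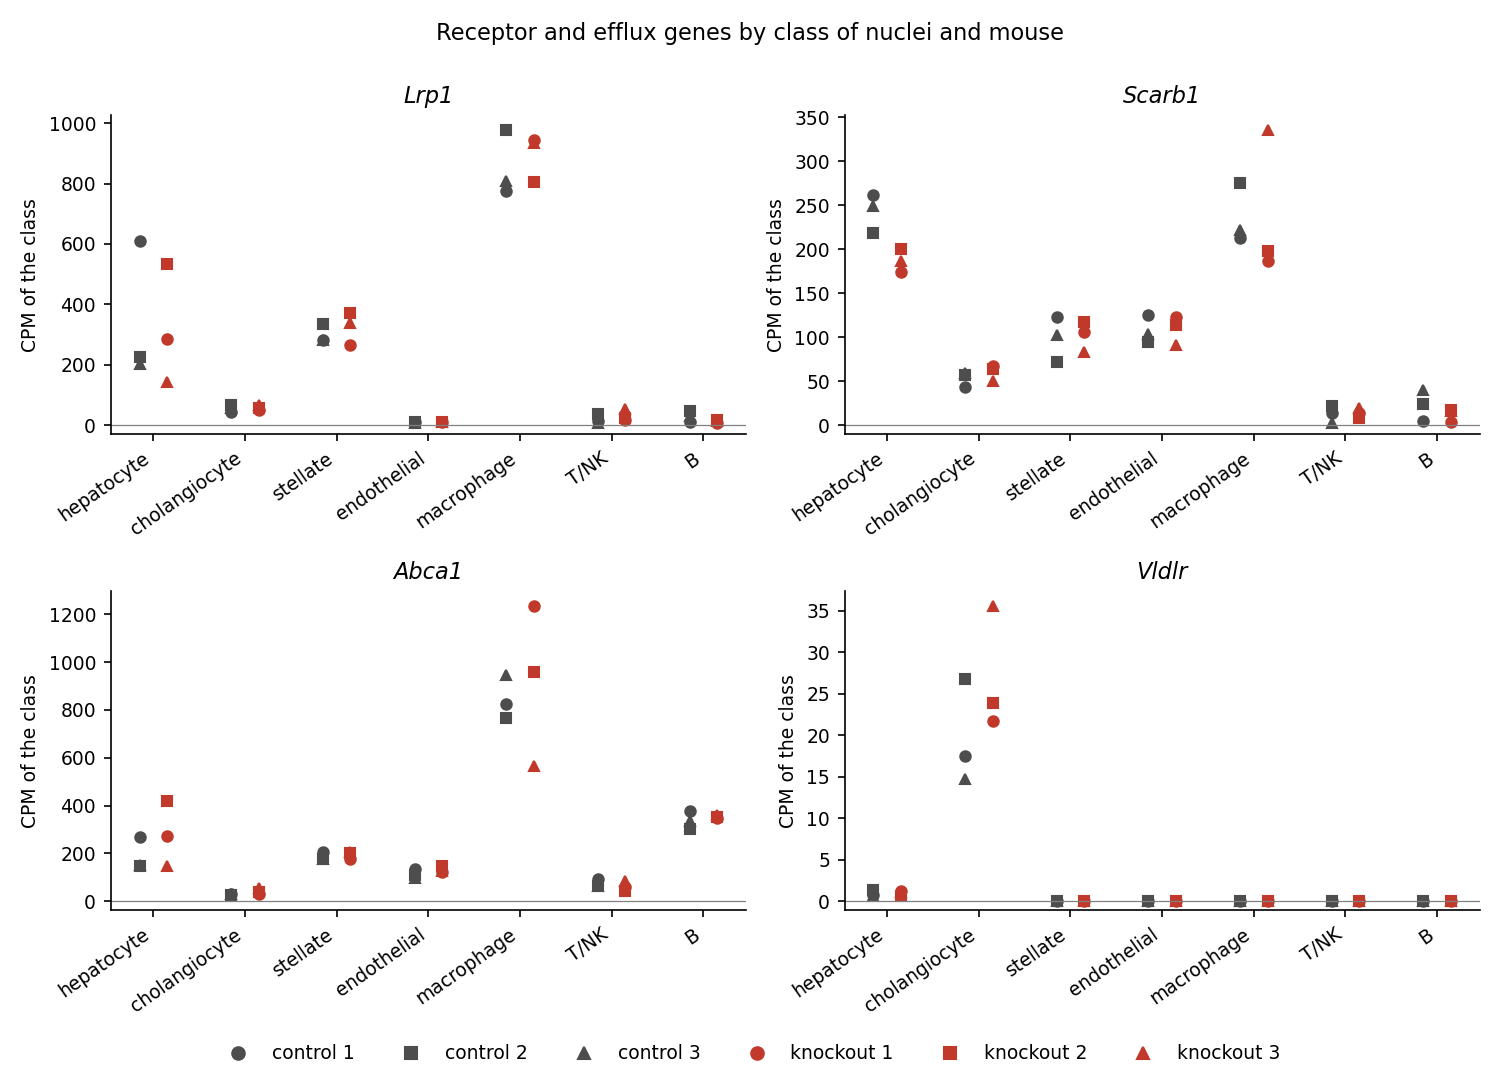
CPM of Lrp1, Scarb1, Abca1 and Vldlr by marker-defined class on linear axes, with 1 symbol per mouse (controls grey, knockouts red) and a line at 0. Lrp1 and Abca1 are highest in macrophage nuclei, Scarb1 is high in hepatocyte and macrophage nuclei, and Vldlr is highest in cholangiocyte nuclei.

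Apolipoprotein transcripts outside hepatocytes were set beside 19 abundant hepatocyte transcripts, as a rough guide to free hepatocyte RNA. The 19 abundant hepatocyte transcripts stood at a median of 7.72 to 15.4% of their hepatocyte CPM in stellate nuclei, 10.9 to 20.7% in endothelial nuclei and 10.1 to 16.5% in macrophage nuclei. Apob (1.78 to 5.66% in stellate, 2.66 to 6.43% in endothelial, 2.62 to 4.57% in macrophage nuclei) and Apoa5 (1.67 to 4.89%, 2.51 to 4.76% and 2.18 to 3.74%) lay below the lowest of those medians. Mttp was at 5.11 to 9.25%, 3.05 to 7.49% and 3.30 to 7.97%. Apoc3 lay above the medians, at 15.6 to 27.1%, 26.8 to 35.5% and 20.9 to 28.8%. The single abundant transcripts ran from 0.448 to 43.2%, 0.690 to 63.2% and 0.555 to 112% in these classes, and Apoc3 lay inside these wide ranges. Whether some of the 19 are made outside hepatocytes was not tested. A place inside or above the range therefore does not settle the source of a transcript. Lrp1 in macrophages (127 to 651%) and stellate nuclei (46.1 to 236%) was above all 19 abundant transcripts in each of the 6 mice, as was Abca1 in macrophages (228 to 627%) and stellate nuclei (48.1 to 141%). Abca1 was above all of them in 3 of 6 mice in endothelial and 5 of 6 in B nuclei. Scarb1 was above all of them in 5 of 6 mice in stellate, 2 of 6 in endothelial and 4 of 6 in macrophage nuclei, whereas Lrp1 in endothelial nuclei was at 1.91 to 6.59%.

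**Figure D5:**
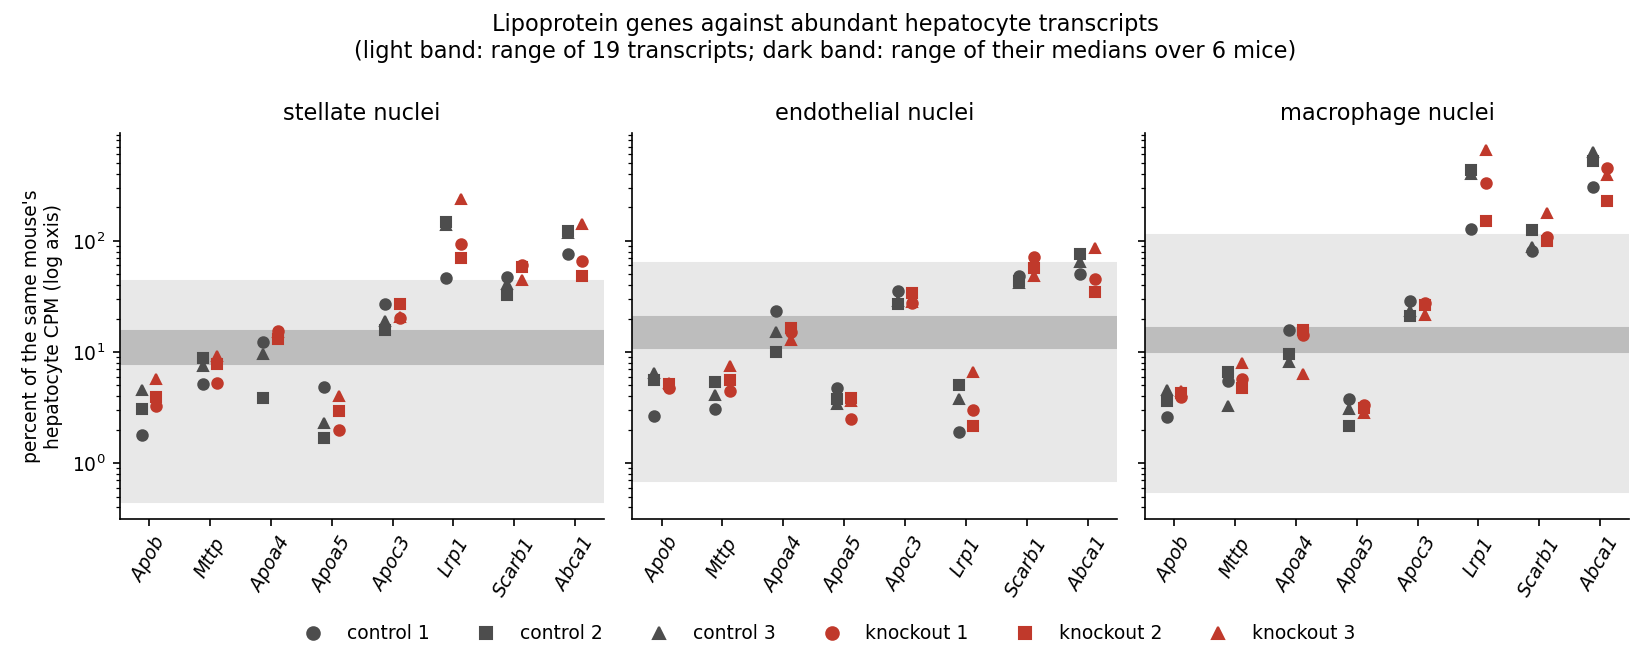
Level of 8 lipoprotein genes in stellate, endothelial and macrophage nuclei as a percent of the level in hepatocyte nuclei of the same mouse, 1 symbol per mouse on a log axis. The light band is the range of the 19 abundant hepatocyte transcripts and the dark band the range of their medians: Apob and Apoa5 lie below the dark band, Apoc3 at or above it, and Lrp1 and Abca1 of macrophages above the light band.

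Apoa4 was lower in every knockout than in any control in endothelial and macrophage nuclei, and overlapped in stellate nuclei. In endothelial and macrophage nuclei its percent of the hepatocyte level was near the medians of the abundant transcripts, and the source of this RNA was not tested. Endothelial nuclei had 11.5, 11.3 and 25.2 CPM in controls and 3.76, 5.0 and 9.28 CPM in knockouts (log2 -1.45, SE 0.45, adjusted p = 0.999, edgeR), without overlap. Macrophage nuclei had 7.74, 10.7 and 13.6 CPM in controls and 3.55, 4.80 and 4.53 CPM in knockouts (log2 -1.31, SE 0.30, unadjusted p = 0.00134, adjusted p = 1.00, edgeR), also without overlap. Knockouts lay below all controls for 2.61% of endothelial and 3.39% of macrophage genes tested. In stellate nuclei Apoa4 had 6.13, 4.35 and 16.0 CPM in controls and 3.86, 3.97 and 10.8 CPM in knockouts, with overlap. The macrophage change passed only when the low-count filter was dropped (adjusted p = 0.0337, edgeR). The knockout effect in endothelial and in macrophage nuclei differed from that in hepatocyte nuclei by -0.02 and 0.11 on the log2 scale, and in stellate nuclei by 0.88 (SE 0.42; adjusted p = 1.0 in each, edgeR). As percents of the hepatocyte level, Apoa4 was at 10.1 to 23.3% in endothelial and 6.31 to 15.9% in macrophage nuclei, close to the medians of the abundant transcripts.

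As in hepatocytes, no lipoprotein gene passed for genotype in any other class under the settings chosen. Of those tested, 0 of 8 passed in stellate nuclei (0.0499% of all genes), 0 of 8 in endothelial (0%), 0 of 8 in macrophage (0%), 0 of 4 in T or NK (0.0152%), 0 of 3 in B (0.0614%) and 0 of 6 in cholangiocyte nuclei (0%). Where edgeR called 0 genes in all, 572 endothelial, 396 macrophage and 287 cholangiocyte genes had an unadjusted p under 0.05. DESeq2 called 21 endothelial and 8 macrophage genes, with no lipoprotein gene among them. In cholangiocyte nuclei Apob, Apoc3 and Abca1 were higher in every knockout than in any control, against 4.82% of genes tested. Apoc3 had 52.6, 72.0 and 73.6 CPM in controls and 96.7, 106 and 146 CPM in knockouts there (log2 0.77, SE 0.26, adjusted p = 0.922, edgeR), and the abundant hepatocyte transcripts had a median log2 change of 0.42 in the same nuclei. Abca1 had a log2 change of 0.58 from levels of 25.1 to 57.0 CPM, or 8 to 16 UMIs per mouse. Apob in T or NK nuclei (49.4 to 75.7 against 78.2 to 92.4 CPM) and Apoc3 in B nuclei (116 to 163 against 171 to 203 CPM) were also higher in every knockout. So was Mttp in T or NK nuclei, from 2 to 4 UMIs per mouse. Apoa4 and Tm6sf2 were lower in every B knockout, from at most 8 UMIs per mouse. The share of all genes so separated in T or NK and B nuclei is not given here.

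Genes with the most similar profile over the 18 sums by mouse and zone were listed for each gene with at least 10 CPM, by Pearson's r of log2 CPM, as a description. The sums share mice and libraries and are not independent, so no p is given. Apoa5 was most like Slc25a32 (r = 0.979), Rnf169 and Cps1, and Lrp1 was most like Abcd3 (r = 0.978), Med26 and Onecut2. Apoc3 followed Rsrp1 (r = 0.959), Slc8b1 and Ube2b, and Apob followed Picalm (r = 0.930), Vcl and Mindy3. Abca1 was nearest Phtf2 (r = 0.922), Magi3 and Dennd4c, and Apoa4 was nearest Vwa3b (r = 0.914), Cyp17a1 and Sesn1. For Mttp the nearest were Epb41 (r = 0.873), Abhd3 and Abcb11, for Tm6sf2 Esr1 (r = 0.867), Sall1 and Glce, and for Scarb1 Ppard (r = 0.862), Ttc7b and Vnn1.

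Related genes of the pathway were read from fixed lists in the zone contrast. Of 16 further genes of assembly and secretion, 4 were higher and 3 lower in pericentral nuclei (median -0.12), among them Sort1, a sorting receptor (2.03), the esterase gene Ces1d (0.86), Sar1b of the vesicles that carry large particles (-0.34) and Smlr1 (-0.26). Of 11 other apolipoproteins, 2 were higher and 6 lower (median -0.30), with Apol9a at -0.58, Apof at -0.49, Apoa1 at -0.33 and Apoc2 at -0.30. Of 11 tested receptors and regulators, 3 were higher and 5 lower (median -0.23), including the proteoglycan Sdc1 (-0.85), Lrp6 (-0.36) and Lsr (-0.35). Lipases and remodelling genes had 2 of 9 higher, Lpl (3.02) and Lipc (0.24), and none lower (median 0.06). Lpl averaged only 3.18 CPM in hepatocyte nuclei, and the part of RNA from other cells in its difference was not tested. Of 6 tested sterol efflux genes, Soat2 (0.51) and Npc1 (0.30) were higher and Abcb11, the bile salt export pump, was lower (-0.24; median 0.01). Of 14 transcription regulators, 2 were higher and 6 lower (median -0.09), led by Creb3l3 (-0.35), Ppargc1a (-1.13), Srebf2 (-0.86) and Mlxipl (0.24). Apart from the CPM level of Lpl, all of these values are log2 differences from the edgeR fit, in which 27.4% of genes passed. Among the abundant hepatocyte transcripts the 4 with the smallest adjusted p were Gc (-0.65), Serpina1a (-0.43), Trf (-0.38) and Apoa1 again.

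For genotype, 0 genes of these lists passed in hepatocyte nuclei. Median log2 changes were 0.05 for assembly, 0.17 for other apolipoproteins, 0.07 for receptors, 0.08 for lipases, -0.33 for sterol efflux and -0.03 for regulators, beside -0.0025 over all genes tested. Of the most abundant genes of each list, the log2 changes were -0.09 (Mia2) and 0.30 (Mia3), 0.63 (Apoa1) and 0.10 (Apoe), -0.02 (Lrp6), 0.02 (Lipc) and -0.20 (Angptl4), -0.56 (Abcb11) and -0.19 (Npc1), and -0.29 (Ppara) and -0.06 (Nr1h4). The abundant hepatocyte transcripts were above 0 for 17 of 19, with a median of 0.37 and with Alb at 0.70 and Cps1 at -0.32. The apolipoproteins among the 10 genes, at -0.08 for Apob, -1.46 for Apoa4, -0.07 for Apoa5 and 0.03 for Apoc3, were each below that median.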

How the data were processed

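UMI counts per gene and nucleus were deposited as filtered matrices for 6 mice, made by the authors with Cell Ranger (7.0.1 per the submitters' processing notes, 7.1.0 per the file headers) on mm10 from the 3′ kit. Whether intron or antisense reads were counted is not stated. The genes and lists were chosen with earlier results of these data known. Nuclei with at least 500 genes, at least 1000 UMIs and under 5% mitochondrial UMIs were kept and scrublet doublets removed. Leiden clusters (scanpy 1.11.5, resolution 1.0), made without the 10 genes or the listed genes, were named from fixed markers; the rule on how many markers must be detected, and leaving out clusters with over 90% of nuclei from 1 library outside hepatocytes, were set after clusters were seen. Counts were summed per mouse and class, or mouse and zone, and tested with edgeR 4.0.16 (quasi-likelihood, TMM, low-count filter, Benjamini-Hochberg over all genes tested, threshold 0.05), with DESeq2 1.42.0 as an alternative. The zone fits had the mouse as a block. Class totals in hepatocytes were 7578574 to 12078720 UMIs per mouse. The steps were tested on simulated counts with the same dispersion for every gene and no split between libraries. That test does not show how small a change these 6 mice could reveal. Named genes were the 10 genes, the passing genes of each list (at most 4, otherwise the 2 most abundant), the 3 nearest profiles and Plvap; some genes this rule names are not reported here. CPM values are not comparable between genes, since length and intron content differ.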

Additional observations from a re-analysis of the deposited data

Results flagged for a closer look

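Among the genes listed beside the 10, Cd36, which encodes a fatty acid translocase and scavenger receptor, had a knockout effect that differed between pericentral and periportal hepatocyte nuclei by 1.87 on the log2 scale (SE 0.24, adjusted p = 0.000593, edgeR interaction test). Periportal nuclei held 48.4, 55.0 and 47.9 CPM in controls and 16.9, 6.96 and 5.96 CPM in knockouts. In middle nuclei the levels were 38.4, 34.5 and 38.4 CPM against 13.6, 5.53 and 9.92 CPM. Pericentral nuclei held 48.9, 89.5 and 77.6 CPM in controls and 79.5, 33.1 and 41.8 CPM in knockouts, where the groups overlapped. Within each zone taken alone, 0 genes passed for genotype in edgeR. Knockouts lay below all controls for 2.59% of genes tested in periportal nuclei. Endothelial markers summed to more in pericentral than in periportal hepatocyte nuclei in 6 of 6 mice, and their part in the Cd36 values was not tested. The same holds for the unequal mean scores of the pericentral nuclei between mice, given with the interaction test above. With nuclei thinned to 1500 UMIs the difference was 2.02 and did not pass (adjusted p = 0.188, edgeR). Across whole hepatocyte nuclei the Cd36 change of -1.25 did not pass (unadjusted p = 0.0088, adjusted p = 0.99995, edgeR).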

How the results depend on the processing

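No paired analysis was possible because the labels carry no replicate numbers or litters, and mice were numbered in accession order. In hepatocytes the knockout changes of Mttp, Scarb1, Apoa4 and Abca1 kept their sign in all 14 alternatives and none passed. Since every knockout lay below every control for Mttp and Scarb1, fits that left out mice had little room to change those 2 signs. Leaving out control 1 and knockout 2 turned Apob to 0.19 and Apoc3 to -0.13, leaving out clusters of mostly 1 library turned Tm6sf2 to -0.069 and Apoc3 to -0.036, and scaling by library size turned Apoa5 to 0.014. With each mouse left out in turn the ranges were -0.25 to 0.18 for Apob, -0.086 to 0.34 for Tm6sf2, -0.39 to 0.32 for Apoa5, -0.25 to 0.23 for Apoc3 and -0.66 to 0.44 for Lrp1, and -1.96 to 0.13 for Apoa4 in pericentral nuclei and -0.17 to 0.35 for Abca1 in macrophages. Vldlr was tested for zone in 6 of 13 settings and entered only through its pericentral nuclei, so its sign and pass are not counted here. Each other zone difference kept its sign in every setting where the gene was tested, which was 12 for Tm6sf2 and 13 for the rest. Without Vldlr the number passing was 7. With a mouse left out, when Vldlr was not tested, it was 5 (without control 2 or control 3) to 8 (without knockout 2, Abca1 among them). With nuclei thinned, when neither Vldlr nor Tm6sf2 was tested, it was 2, and 1362 of all genes passed in place of 3402. The zone by genotype count of 15 became 126 without the low-count filter, 7 with zone boundaries pooled over libraries, 7 with nuclei thinned, 58 without control 1 and knockout 2, and 6 to 102 with a mouse left out. DESeq2 called 13 hepatocyte, 13 stellate, 21 endothelial and 8 macrophage genes for genotype, where edgeR called 0, 6, 0 and 0. Without the low-count filter edgeR called 6 periportal, 6 middle, 4 pericentral, 60 stellate, 28 endothelial, 35 macrophage (1 of them Apoa4), 34 T or NK, 15 B and 7 cholangiocyte genes. Without control 1 and knockout 2 it called 3 middle, 7 endothelial, 2 macrophage, 2 T or NK, 17 B and 3 cholangiocyte genes, and 1 macrophage and 9 stellate genes in the tests against hepatocytes. Thinning gave 2 endothelial genes and 1 B gene. With a mouse left out the counts ranged from 0 to 4 in middle hepatocyte, 0 to 4 in endothelial, 1 to 41 in T or NK, 2 to 18 in B and 0 to 8 in cholangiocyte nuclei, and from 1 to 3 for stellate against hepatocyte nuclei. The cause of these shifts was not tested. Vldlr and Tm6sf2 rest on few UMIs in each mouse, which limits their precision.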

Other observations

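A cluster of 288 nuclei led by Dmbt1, Klf5 and Krt19, of which 96.1% came from control 2, was left out of the classes. It held 20 Vldlr UMIs, or 12.7 CPM (95% exact Poisson interval 7.78 to 19.7, counting error only), and 127 Lrp1 UMIs, or 80.8 CPM (67.4 to 96.2). In 170 pooled dendritic nuclei Lrp1 was at 344 CPM (307 to 383) and Abca1 at 301 CPM (267 to 338), and in 91 pooled plasmacytoid dendritic nuclei they were at 47.1 CPM (27.9 to 74.5) and 28.8 CPM (14.4 to 51.5). No Vldlr UMI was found in either of these dendritic groups. These groups had too few nuclei per mouse for a comparison of genotypes.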
